A study of Rattus norvegicus with 9 samples.

Results

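The genes described here are those of cholesterol synthesis, measured in hepatic macrophages of rats after the portal vein was narrowed. The list holds 8 genes: Idi1, Fdps, Fdft1, Sqle, Lss, Cyp51, Hmgcs1 and Insig1. Each was represented by the array probeset that carries that symbol alone in the platform annotation, with the highest-mean probeset standing for a gene that has several. Of the 8, 7 were found, each with 1 probeset, and Hmgcs1 was not analysed here. They are 7 of 18166 genes with a symbol of their own and 7 of the 14014 that passed the filter on dim genes. These genes include no receptor for cholesterol uptake, so uptake is described only through a separate list of pathway genes below.

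The 9 rats were male Sprague-Dawley animals, for which the labels list no transgene or drug. In the sham group (3 rats) the portal vein was freed from the surrounding tissue without a ligature. In the other 2 groups a ligature tied over a 20-gauge needle, then withdrawn, left the vein narrowed (partial portal vein ligation, PPVL, a model of portal hypertension), and macrophages were taken at 3 days (3 rats) or 10 days (3 rats). The labels give neither the rats' age nor the day on which the sham rats were studied, so time since surgery and the ligation cannot be told apart. Hepatic macrophages were isolated from each liver, by a procedure that is not given in the sources used here, and their RNA was run on 1 array per rat, in 1 colour.

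Cholesterol is built from acetyl-CoA through mevalonate, isoprenoid units, squalene and lanosterol. Transcription of the enzymes is driven by the factor SREBP2, which leaves the endoplasmic reticulum for activation when sterols are low. Insig1 holds the escort of SREBP2 in the endoplasmic reticulum when sterols are high, and is itself a target of the pathway. Macrophages also take up cholesterol from lipoproteins and engulfed cells, and then store it as ester or export it.

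Promoter sequences are shown for 3 of the genes because the listed enzymes are known to share regulation by SREBP2 together with factors that bind CCAAT and GC-rich boxes. RefSeq windows of the GRCr8 build, from 250 bases before to 50 after a gene's start, were held for 6 of the 8 listed genes (Hmgcs1, Insig1, Idi1, Fdps, Cyp51 and Lss). The 250 bases before the start are printed 5′ to 3′ on the gene's own strand, and capitals mark CCAAT or its reverse complement ATTGG. The Insig1 window lies at chr4:8057770-8058019 on the minus strand, that of Idi1 at chr17:66547525-66547774 on the minus strand and that of Lss at chr20:12118231-12118480 on the minus strand. Insig1 is shown for its 10-day rats, which all lay above sham without passing the adjusted test, and Idi1 and Lss as enzyme genes whose groups overlapped.
Insig1: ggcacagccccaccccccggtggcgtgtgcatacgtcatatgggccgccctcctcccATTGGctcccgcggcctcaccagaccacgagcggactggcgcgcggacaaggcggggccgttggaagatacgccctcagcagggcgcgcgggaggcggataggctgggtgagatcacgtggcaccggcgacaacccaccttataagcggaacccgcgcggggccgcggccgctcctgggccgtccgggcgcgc
Idi1: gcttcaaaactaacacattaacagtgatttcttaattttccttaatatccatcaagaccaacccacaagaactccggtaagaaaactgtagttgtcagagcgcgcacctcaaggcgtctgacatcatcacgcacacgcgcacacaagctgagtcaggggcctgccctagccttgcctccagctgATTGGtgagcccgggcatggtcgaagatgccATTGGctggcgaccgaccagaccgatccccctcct
Lss: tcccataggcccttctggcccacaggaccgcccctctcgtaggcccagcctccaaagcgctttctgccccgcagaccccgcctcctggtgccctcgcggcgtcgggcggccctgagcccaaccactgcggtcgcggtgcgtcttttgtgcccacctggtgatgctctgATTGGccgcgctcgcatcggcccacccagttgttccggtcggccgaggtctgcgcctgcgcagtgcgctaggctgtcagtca

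In Insig1 the capital run begins 193 bases before the start, in Lss it begins 82 bases before it, and in Idi1 there are 2 runs, beginning 66 and 35 bases before it. A search of both strands found CCAAT in 5 of the 6 windows, all except that of Cyp51, and it occurs in 37.5% of the 33469 RefSeq windows of the same length. The GC box GGGCGG was found in 5 of the 6, all except Idi1, against 33.1% of all windows, and the E-box CACGTG only in Insig1, against 6.42%. The sterol-element-like motif TCACNCCAC, where N is any base, was found in none of the 6 and in 1.12% of all windows, which says only that these letters are not in these windows. The motifs do not overlap one another in the windows printed. CCAAT was thus present in all 3 windows printed, and none of these 3 genes passed a test between groups. No window was held for Sqle or Fdft1. In 11 windows of other enzymes of the route, CCAAT was found in 9 and GGGCGG in 10, so neither is particular to the listed genes.

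The signals are log2 values, so that 1 unit is a doubling, and they are compared within a gene only. Each difference below is a log2 difference ± standard error (SE) from a linear model of all 9 arrays (limma), with n = 3 rats per group. The adjusted p is that of limma's moderated test with the Benjamini-Hochberg method over 14014 genes, and a gene is said to rise or fall only below 0.05. Since each array came from its own rat, the SE reflects the spread between animals.

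None of the 7 genes passed the test in any of the 3 comparisons between groups, with limma. At 10 days Sqle and Insig1 were higher than in sham in every rat, by 0.49 ± 0.12 (1.40-fold) and 0.36 ± 0.10 (1.28-fold), without passing the adjusted test. Sqle alone passed a single test over the 3 groups together. At 3 days the 7 genes lay between -0.18 and 0.10 of sham. Over all tested genes 2.86% passed at 3 days, 0.735% at 10 days and 0.0714% between the days.

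Sqle encodes squalene epoxidase, a rate-limiting enzyme of the sterol branch that oxidises squalene. Its log2 signals were 8.12, 8.27 and 8.16 in sham rats 1 to 3, 7.93, 8.22 and 7.92 in 3-day rats 1 to 3, and 8.84, 8.41 and 8.77 in 10-day rats 1 to 3. All 3 rats of the 10-day group lay above all 6 others, while the sham and 3-day groups overlapped. The difference from sham at 10 days was 0.49 ± 0.12 (adjusted p = 0.0907, 95% interval 0.22 to 0.76), and that from 3 days was 0.65 ± 0.12, or 1.57-fold (adjusted p = 0.164, 95% interval 0.38 to 0.92). By unadjusted p Sqle was number 29 of the 14014 genes in the comparison between the days and number 374 in that of 10 days with sham. At 3 days it differed from sham by -0.16 ± 0.12 (adjusted p = 0.593).

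The moderated F test of limma over the 3 groups together gave an adjusted p of 0.0441 for Sqle, where 2.35% of the genes passed. That call was lost in 7 of the 9 fits that left out 1 array. Adjusted p of the F test was 0.0877, 0.0932 and 0.105 without sham rat 1, 2 or 3, 0.0848 and 0.0850 without 3-day rat 1 or 3, and 0.142 and 0.145 without 10-day rat 1 or 3. It was 0.0458 without 3-day rat 2 and 0.0264 without 10-day rat 2, the 10-day rat with the lowest Sqle signal.

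Insig1 encodes the retention protein of the endoplasmic reticulum described above. Its signals were 8.37, 8.52 and 8.52 in sham, 8.51, 8.64 and 8.45 at 3 days, and 8.91, 8.61 and 8.96 at 10 days. The 10-day rats lay above every sham rat, but 10-day rat 2 lay below 3-day rat 2. The difference from sham was 0.36 ± 0.10 at 10 days (adjusted p = 0.119, 95% interval 0.13 to 0.58) and 0.06 ± 0.10 at 3 days (adjusted p = 0.840). Between the days it was 0.29 ± 0.10 (adjusted p = 0.329), and the F test gave an adjusted p of 0.152. In both genes 10-day rat 2 was the lowest of its group, and the differences without that rat were 0.62 for Sqle and 0.46 for Insig1 against sham (adjusted p = 0.0567 and 0.0614). These were the largest differences and lowest adjusted p of the 9 fits that left out 1 array. Over those 9 fits the differences went down to 0.41 for Sqle and 0.29 for Insig1, with adjusted p up to 0.245 and 0.296.

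**Figure D1:**
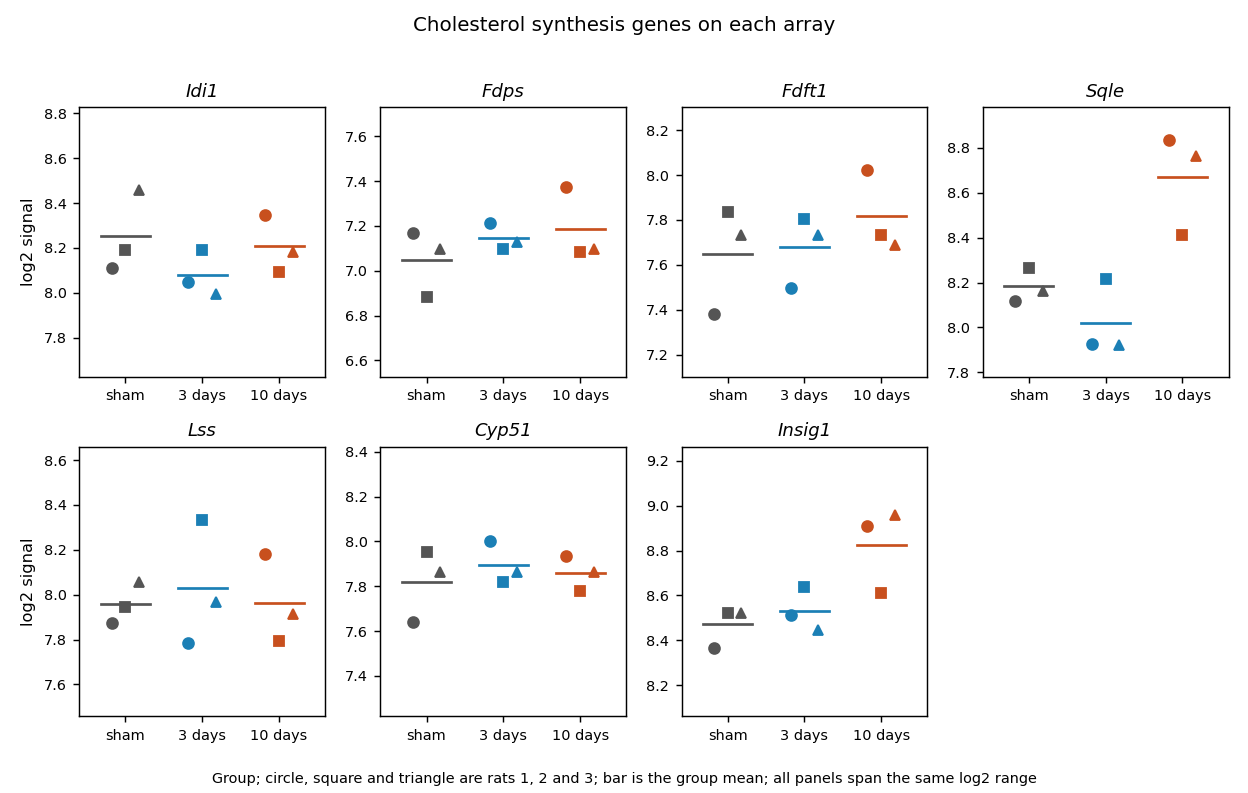
Log2 signal (y axis) of the 7 genes on each array, by group (x axis), with 1 marker per rat and a bar at the group mean. In Sqle the 10-day rats sit at 8.41 to 8.84, above the 7.92 to 8.27 of the other 6 rats, while the groups overlap in Idi1, Fdps, Fdft1, Lss and Cyp51.

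In the members ahead of Sqle on the route, Idi1, Fdps and Fdft1, the groups overlapped in every comparison, and no test compared these genes with Sqle. Idi1, which isomerises the isoprenoid unit, had signals of 8.11, 8.19 and 8.46 in sham, 8.05, 8.19 and 7.99 at 3 days, and 8.35, 8.09 and 8.18 at 10 days. The 3 groups overlapped, with differences from sham of -0.18 ± 0.10 at 3 days (adjusted p = 0.480) and -0.05 ± 0.10 at 10 days (adjusted p = 0.882).

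Fdps makes farnesyl diphosphate, the branch point towards sterols and protein prenylation. Its signals were 7.17, 6.88 and 7.10 in sham, 7.21, 7.10 and 7.13 at 3 days, and 7.37, 7.08 and 7.10 at 10 days. All groups overlapped, and 10-day rat 1 was the highest array. The differences from sham were 0.10 ± 0.10 at 3 days and 0.13 ± 0.10 at 10 days (adjusted p = 0.719 and 0.550). The array also carries a probeset for an Fdps pseudogene, Fdps-ps4, whose mean of 4.13 is below the filter of 4.16, and the values used here cannot show whether RNA of a near-identical copy adds to the Fdps signal, so its values are uncertain in that respect.

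Fdft1 encodes squalene synthase, the first enzyme committed to sterols. Signals were 7.38, 7.84 and 7.73 in sham, 7.50, 7.81 and 7.73 at 3 days, and 8.02, 7.73 and 7.69 at 10 days. The groups overlapped, and the spread within sham (SD 0.24, n = 3) was larger than either difference from sham, 0.03 ± 0.14 at 3 days and 0.17 ± 0.14 at 10 days (adjusted p = 0.955 and 0.602).

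After squalene epoxidase, Lss closes the ring to lanosterol. Its signals were 7.87, 7.95 and 8.06 in sham, 7.79, 8.33 and 7.97 at 3 days, and 8.18, 7.79 and 7.91 at 10 days. The highest and the lowest of the 9 arrays were both 3-day rats, and the differences from sham were 0.07 ± 0.14 and 0.00 ± 0.14 at 3 and 10 days (adjusted p = 0.876 and 0.992).

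Cyp51 removes a methyl group from lanosterol. Its signals were 7.64, 7.95 and 7.86 in sham, 8.0, 7.82 and 7.86 at 3 days, and 7.94, 7.78 and 7.86 at 10 days. It had the narrowest range of the 7 genes over the arrays (0.36), and differed from sham by 0.08 ± 0.09 and 0.04 ± 0.09 (adjusted p = 0.768 and 0.878). In Fdft1, Fdps and Cyp51, 3 arrays held exactly the same value, equal to that gene's median over the 9 arrays.

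**Figure D2:**
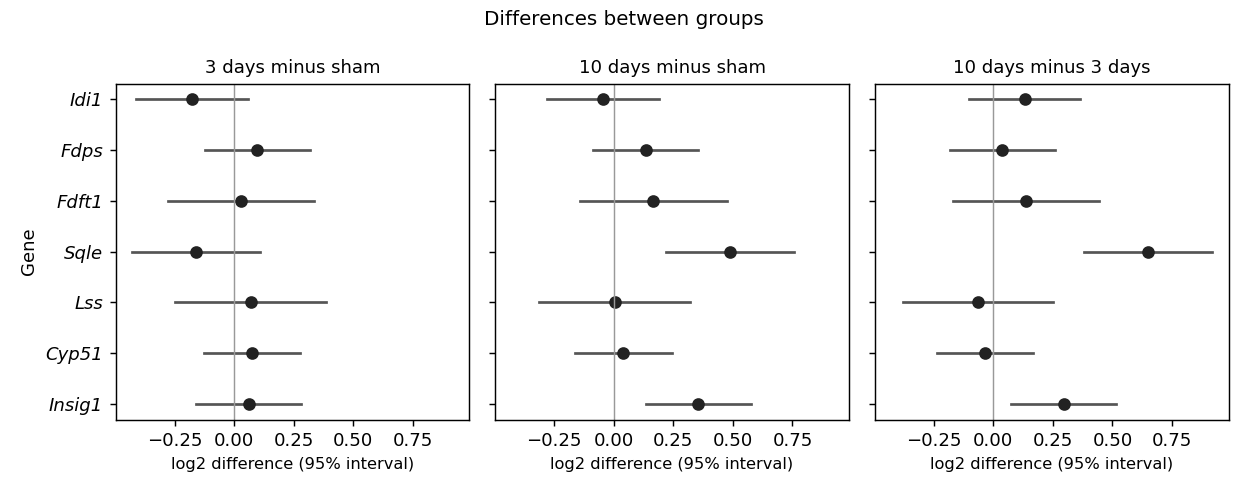
Log2 differences (x axis) of the 7 genes (y axis) in the 3 comparisons, as points with unadjusted 95% intervals of the limma fit. The intervals of Sqle and Insig1 lie above 0 at 10 days against both sham and 3 days, and all other intervals include 0.

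Counted over the 7 genes, none had an unadjusted p under 0.05 at 3 days, where 15.5% of all tested genes had one in either direction, and in none did the 3-day rats lie wholly above or below sham, where 18.8% of all genes showed that. At 10 days against sham 2 of the 7 were higher at an unadjusted p under 0.05 (Sqle and Insig1), against 7.99% of all genes, and in the same 2 the groups did not overlap, against 9.88%. Between the days Sqle and Insig1 were again higher at an unadjusted p under 0.05, against 5.04% of all genes, and in Sqle alone all 10-day rats lay above all 3-day rats, against 6.90%. The comparisons with sham share the sham arrays, and both comparisons that involve 10 days share the 10-day arrays. The genes were chosen with earlier results of these data known, so these counts are descriptions and were not tested against the shares. The median difference of the 7 was 0.06 at 3 days, 0.13 at 10 days and 0.13 between the days, beside medians of -0.014, 0.00 and 0.01 over all tested genes. The unadjusted 95% intervals bound what 3 rats per group could show: at 3 days those of the 7 genes together ran from -0.43 to 0.38, and at 10 days those of the 5 genes other than Sqle and Insig1 ran from -0.31 to 0.47.

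The arrays contributed unequally. Of the 7 genes, 3 had their highest signal in 10-day rat 1 (Sqle, Fdps and Fdft1) and 3 had their lowest in sham rat 1 (Insig1, Fdft1 and Cyp51). The mean of the 7 centred signals was 0.26 in 10-day rat 1, 0.10 in 10-day rat 3 and -0.04 in 10-day rat 2, beside -0.16 to 0.02 in sham and -0.11 to 0.05 at 3 days, so that 10-day rat 2 lay within the range of the other groups.

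Among the pairs of genes, Sqle and Insig1 moved most closely together over the 9 arrays (Pearson r = 0.91, and 0.91 after group means were removed). The 21 pairs ranged from 0.04 to 0.91 with a median of 0.32. After group means were removed, the median was 0.49 and 19 of the 21 were above 0, from -0.13 to 0.91. Within groups the r of Sqle was 0.80 with Lss, 0.58 with Idi1, 0.56 with Fdft1, 0.29 with Cyp51 and 0.10 with Fdps. These correlations over 9 arrays are descriptions, since all genes share the same arrays and their normalization.

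**Figure D3:**
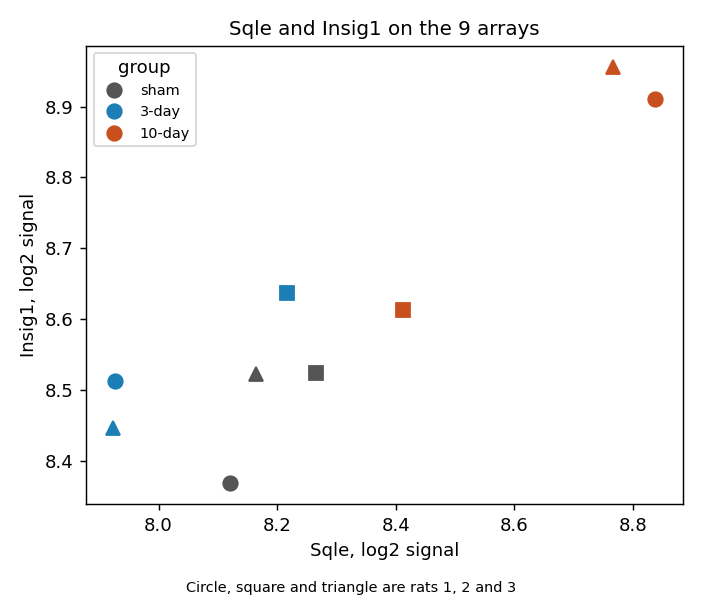
Log2 signal of Sqle (x axis) against that of Insig1 (y axis), with 1 marker per rat coloured by group. 10-day rats 1 and 3 sit apart at the upper right, and 10-day rat 2 lies at 8.41 and 8.61, next to 3-day rat 2 at 8.22 and 8.64.

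Srebf2, the gene of the factor itself, differed from sham by -0.05 ± 0.06 at 3 days and 0.12 ± 0.06 at 10 days (adjusted p = 0.743 and 0.323). Its signals were 9.90, 9.94 and 9.93 in sham, 9.89, 9.91 and 9.81 at 3 days, and 10.09, 10.01 and 10.04 at 10 days. As in Sqle, the 10-day rats lay above the 6 others. Over the 9 arrays it followed Sqle with r = 0.96 and Insig1 with r = 0.85, pairs that were picked out after the values had been seen. The genes whose pattern was most like the mean of the 7 centred signals, by Pearson r over the 9 arrays among all other tested genes, were Gsto1 (0.96), Myocd (0.94), Tmem70 (0.93), Sbno2 (0.93) and Ubxn10 (0.93). None of these 5 passed the test against sham at 10 days. Among them, Myocd and Ubxn10 were dim, with means of 4.69 and 4.28, close to the filter on dim genes. The 5 were picked for the highest r among all other tested genes over only 9 arrays. Their r values are therefore descriptions, and whether these genes share regulation with the 7 was not tested.

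The rest of the synthesis route was taken from a list of 14 other enzymes, of which 11 were tested. None of the 11 rose or fell in any comparison, with limma. Their median difference was -0.11 at 3 days, with 8 of 11 below 0, and -0.06 at 10 days. At an unadjusted p under 0.05, 3 were lower and none higher at 3 days, where 6.39% of all tested genes were lower and 9.10% higher. At 10 days 1 was higher and 1 lower, where 7.99% of all genes were higher and 8.21% lower. The lowest p belonged to Sc5d, a late desaturase, at -0.30 ± 0.09 (adjusted p = 0.113), Mvd, which completes the isoprenoid unit, at -0.25 ± 0.09 (adjusted p = 0.190), and Tm7sf2, a sterol reductase, at -0.19 ± 0.07 (adjusted p = 0.241), all at 3 days. Msmo1, which oxidises the methyl groups at carbon 4 of the sterol later on the route, had the highest difference of these 11 at 10 days, 0.32 (adjusted p = 0.241), and is named because of that value. By size of the 10-day difference, Sqle was thus followed by Msmo1 and, among the listed enzymes described above, by Fdft1 (0.17) and Fdps (0.13). Fdft1 and Fdps act ahead of Sqle on the route, while Lss and Cyp51, which act after it, were at 0.00 and 0.04. No test compared one gene with another.

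**Figure D4:**
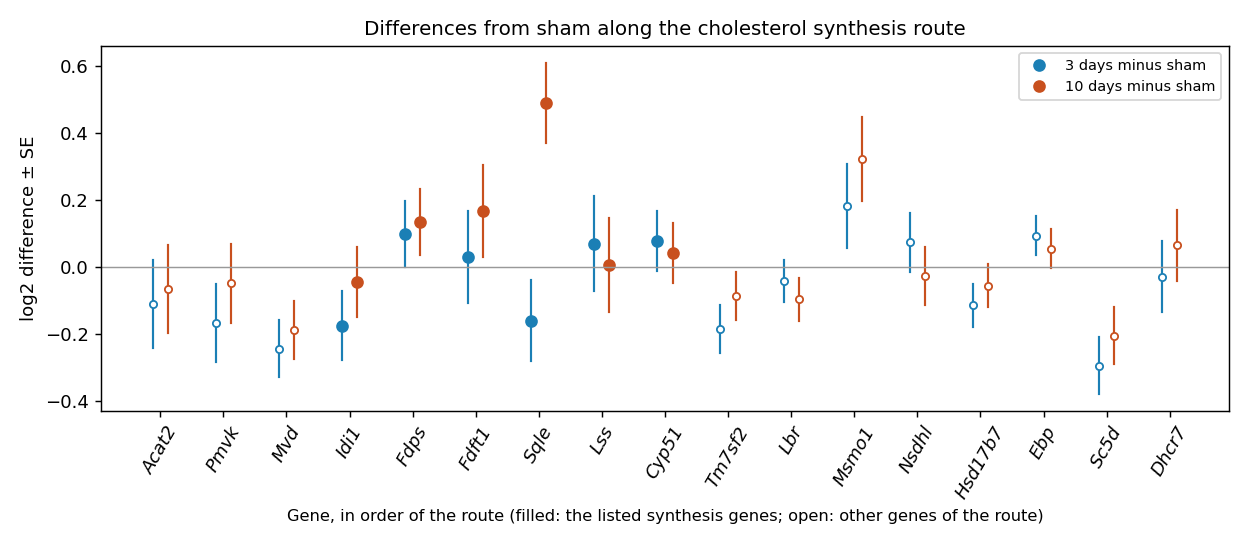
Log2 difference from sham ± SE (y axis) of the tested genes along the synthesis route (x axis), at 3 days and at 10 days, with filled markers for the 6 enzymes described above and open markers for the other 11. Sqle at 10 days (0.49) is the highest point, and Sc5d at 3 days (-0.30) is the lowest.

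In the machinery that controls SREBP, 9 of 11 listed genes were tested and none passed in any comparison with limma, while at an unadjusted p under 0.05 there were 2 higher and 1 lower at 3 days (all genes: 9.10% and 6.39%) and 1 higher at 10 days (all genes: 7.99%). Erlin1, a membrane protein that restrains SREBP activation, differed by 0.40 ± 0.09 at 3 days and 0.39 ± 0.09 at 10 days (adjusted p = 0.0529 and 0.0783), with all rats after ligation above all sham rats. Scap, the escort of SREBP, differed by -0.16 ± 0.07 at 3 days (adjusted p = 0.298). Of 8 tested genes of 9 for the isoprenoid side branches, none passed with limma, and 2 were lower at an unadjusted p under 0.05 at each day, beside 6.39% of all genes at 3 days and 8.21% at 10 days. The lowest p were those of Nus1, for dolichol, at 3 days (-0.21, adjusted p = 0.182), the farnesyl transferase subunit Fntb at 10 days (-0.35, adjusted p = 0.203) and Coq2, of ubiquinone synthesis, at 3 days (-0.16, adjusted p = 0.272).

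Some genes for taking up, moving and storing cholesterol did pass. Of 16 uptake and transport genes 12 were tested, and at 3 days 2 rose (over all genes 2.15% rose) and 1 fell (over all genes 0.714%), with a median difference of 0.09. The large endocytic receptor Lrp1 had signals of 8.58, 8.90 and 8.85 in sham, 9.64, 9.78 and 9.48 at 3 days, and 9.50, 9.47 and 9.56 at 10 days. It rose by 0.85 ± 0.10 at 3 days (adjusted p = 0.00338) and by 0.73 ± 0.10 at 10 days (adjusted p = 0.0400), with no overlap between sham and either day. Npc2, which hands cholesterol out of the lysosome, rose by 0.64 ± 0.10 at 3 days (adjusted p = 0.0103) and was at 0.38 ± 0.10 at 10 days (adjusted p = 0.0953). Its signals were 8.89, 9.11 and 9.19 in sham, 9.77, 9.78 and 9.56 at 3 days, and 9.56, 9.40 and 9.38 at 10 days. Gramd1b, an Aster protein that carries cholesterol from the plasma membrane to the endoplasmic reticulum, fell by 0.28 at 3 days (SE 0.06, adjusted p = 0.0452). It stood at 10.79, 10.68 and 10.72 in sham and at 10.51, 10.41 and 10.42 at 3 days. Another receptor of the list, Vldlr, which takes up triglyceride-rich lipoproteins and is named for its value, was at -0.62 ± 0.14 at 3 days (adjusted p = 0.0506), with every 3-day rat below every sham rat, and at -0.36 ± 0.14 at 10 days (adjusted p = 0.244). At 10 days 1 of the 12 rose, Lrp1, and over all genes 0.492% rose.

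Of 11 genes of sterol sensing by LXR, export and storage, 10 were tested, and 2 rose at 3 days and 1 at 10 days, beside 2.15% and 0.492% of all genes. Their median difference was 0.23 on both days. Ch25h, which makes 25-hydroxycholesterol, a sterol known to hold back SREBP activation, had signals of 9.09, 9.28 and 9.50 in sham, 10.30, 10.76 and 10.39 at 3 days, and 9.99, 10.00 and 10.16 at 10 days. It rose by 1.2 ± 0.13 (2.29-fold, adjusted p = 0.00269) at 3 days and by 0.76 ± 0.13 (adjusted p = 0.0473) at 10 days, with all rats after ligation above all sham rats. Soat1, which esterifies cholesterol for storage, rose by 0.31 ± 0.07 at 3 days (adjusted p = 0.0481) and was at 0.29 ± 0.07 at 10 days (adjusted p = 0.0839). The exporter Abca1 differed by 0.20 ± 0.22 at 3 days and -0.55 ± 0.22 at 10 days (adjusted p = 0.748 and 0.260), and its 10-day signals of 8.18, 8.29 and 8.39 lay below the sham signals of 9.11, 8.69 and 8.71. Of the 10 tested genes of 11 on the fatty acid side of SREBP control, Me1, which supplies NADPH, was the only one to pass, at 3 days (0.99 ± 0.21, adjusted p = 0.0361), where 2.15% of all genes rose.

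In fits that left out 1 array, the 3-day calls of Lrp1, Npc2 and Ch25h held in 9 of 9. The 3-day call of Gramd1b was lost in 9 of 9 (adjusted p = 0.0559 to 0.143), that of Soat1 in 8, all but the fit without 3-day rat 1 (adjusted p up to 0.154), and that of Me1 in 7, all but those without sham rat 1 or 2 (adjusted p up to 0.114). The 10-day calls of Lrp1 and Ch25h were lost without any 1 sham or 10-day rat (adjusted p up to 0.143 and 0.150) and held without any 1 of the 3-day rats.

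**Figure D5:**
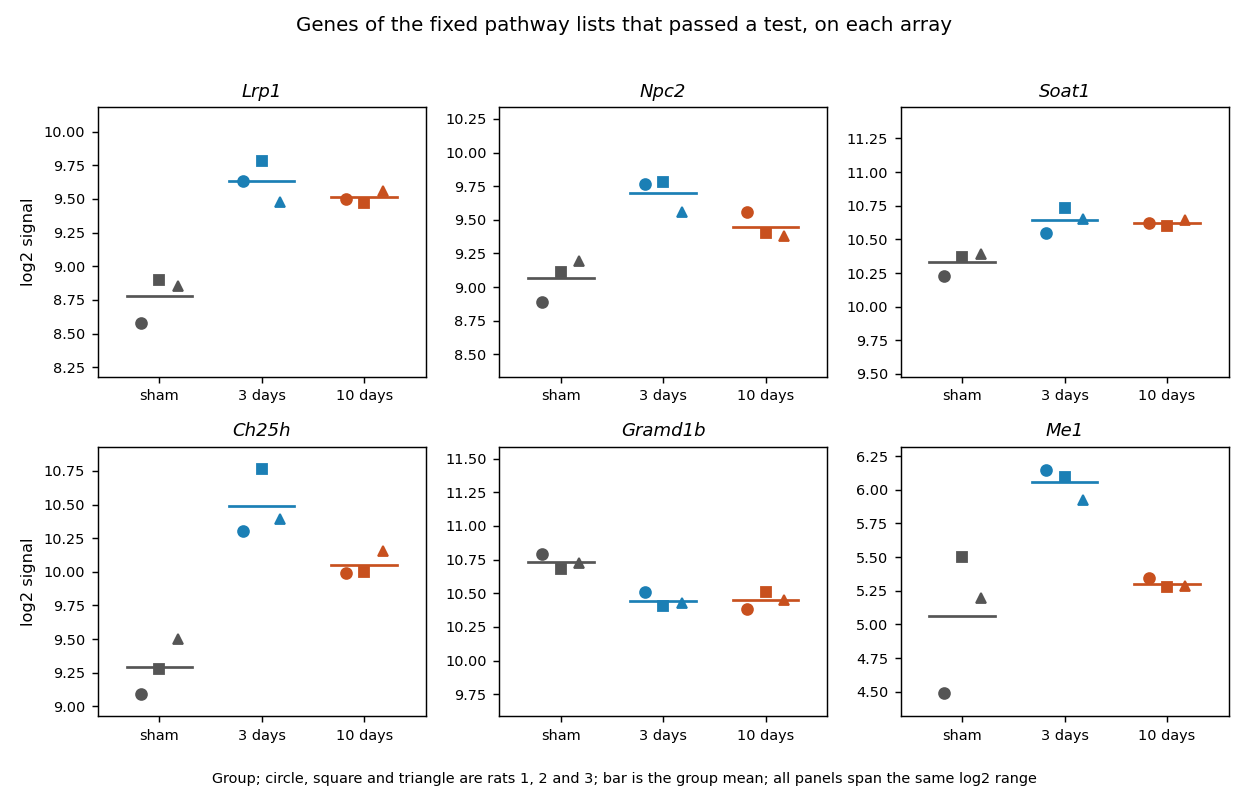
Log2 signal (y axis) on each array, by group (x axis), of the 6 genes from the pathway lists that passed a test, with 1 marker per rat and a bar at the group mean. Ch25h is at 9.09 to 9.50 in sham and at 9.99 to 10.76 after ligation, and Gramd1b is lower after ligation than in every sham rat.

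Cell markers moved in the same comparisons. In whole preparations such as these, fewer cells of a type and less RNA per cell cannot be told apart. For the labelled cell type, all 6 macrophage markers (Cd68, Adgre1, Csf1r, Lyz2, Cd14 and Aif1) were present, with 7.29 (Aif1) as the lowest signal on any array against the filter of 4.16. At 3 days 3 of the 6 macrophage markers rose, where 2.15% of all genes rose. Their summed level, as the mean centred log2 signal, was -0.41 to -0.26 in sham, 0.15 to 0.31 at 3 days and -0.02 to 0.17 at 10 days. T cell markers (6 of 6 tested, Cd3e among them at a mean of 9.48) ran the other way, at 0.11 to 0.33 in sham, -0.23 to 0.09 at 3 days and -0.31 to -0.10 at 10 days. Of these 6, Cd5 alone fell at 10 days (-0.58 ± 0.10, adjusted p = 0.0449), where 34 of 14014 genes fell. Natural killer cell markers (5 of 5) were at 0.07 to 0.23, -0.35 to 0.22 and -0.23 to -0.13 in the 3 groups. Their means ran from 6.69 (Klrb1) to 11.71 (Prf1), with Nkg7 at 11.57 and Gzmb at 10.61, so these transcripts too were well above the filter. Which cells the cholesterol gene signals came from was not tested. B cell markers (4 of 5) were at -0.41 to -0.30, -0.11 to 0.34 and -0.02 to 0.47. Of these 4, Vpreb3 alone rose at 3 days (0.83 ± 0.16, adjusted p = 0.0285), where 2.15% of all genes rose. The 6 markers of resident Kupffer cells were dim, with means of 4.26 to 5.27 against the filter of 4.16. The mean level of neutrophil markers (5 of 5) moved furthest at 3 days. It was -0.99, -0.14 and -0.09 in sham rats 1 to 3, 0.11 to 0.85 at 3 days and -0.41 to 0.11 at 10 days. Of these 5, Fcnb (1.23 ± 0.18, adjusted p = 0.0103) and Csf3r (1.04 ± 0.21, adjusted p = 0.0326) rose at 3 days, where 2.15% of all genes rose. S100a8, S100a9 and Mpo did not pass at 3 days (adjusted p = 0.191, 0.268 and 0.862). Lrp1, Npc2, Ch25h, Soat1 and Me1 also rose at 3 days, as did the macrophage markers Lyz2, Cd14 and Aif1 and the B cell marker Vpreb3. Platelet markers (4 of 4) were at -0.23 to 0.13, -0.23 to 0.68 and -0.48 to -0.10 in the 3 groups, and none passed with limma. At 3 days 2 of the platelet markers were higher at an unadjusted p under 0.05, against 9.10% of all genes. The part of these markers in the differences of the cholesterol genes was not tested. Hepatocytes, which also make cholesterol, were read from 7 of 10 markers at -0.27 to -0.05, -0.23 to 0.25 and 0.05 to 0.13. Apart from Alb, at a mean of 7.91, these markers were dim, with means of 4.40 to 5.50 against the filter of 4.16. Alb differed from sham by 0.75 ± 0.39 at 3 days and 0.67 ± 0.39 at 10 days (adjusted p = 0.413 and 0.448). With that hepatocyte level in the fit, the 10-day difference from sham was 0.62 for Sqle and 0.43 for Insig1 (adjusted p = 0.0744 and 0.139). How much of either signal came from hepatocytes was not tested.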

How the data were processed

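The deposited values are log2 signals that the authors made with RMA (robust multi-array average) and Transcriptome Analysis Console, per the submitters' processing notes, with versions and genome build not given in the sources used here. No further normalization was applied to the 36685 probesets, and medians of the 9 arrays lay between 5.21 and 5.26. Probesets were named from the platform annotation: 18511 had 1 symbol, 575 several and 17599 none. Testing covered the 14014 genes whose mean reached the 30th percentile over probesets (4.16). All 9 arrays entered a 3-group limma model (version 3.58.1, R 4.3.3), 2-sided, with 6 residual and 3.59 prior degrees of freedom, Benjamini-Hochberg adjustment and a threshold of 0.05. An exact permutation test of 3 rats against 3 cannot go below p = 0.1. Precision is limited by the number of arrays. The procedure was tested on simulated data.

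The members and gene lists were chosen with earlier results of these data known. Named genes were the members, list genes past the test (otherwise the 3 with the smallest p), the 5 genes of most similar pattern, and Srebf2, Abca1 and Alb. Alternatives were other filters, probeset means, all probesets, quantile normalization, trended robust moderation, array weights, a replicate block, fits of 2 groups, a hepatocyte score and leaving out each array.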

Additional observations from a re-analysis of the deposited data

Results flagged for a closer look

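The signal of Srebf2 after ligation lay below the sham mean in every 3-day rat and above it in every 10-day rat, with mean differences of -0.05 and 0.12. The difference between the days was 0.18 on the log2 scale, which did not pass limma's moderated test (adjusted p = 0.318, n = 3 rats per group).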

How the results depend on the processing

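None of the 7 genes was called in any comparison under the 10 other settings or the 9 fits without 1 array, where the 10-day difference of Sqle from sham ran from 0.41 to 0.62 and that of Insig1 from 0.29 to 0.46. The F test of Sqle gave an adjusted p of 0.0560 with no filter, 0.112 with all probesets, 0.0603 with array weights and 0.115 with the replicate block, and 0.0264 to 0.145 without 1 array. The genes called by the F test numbered 329, or 81 with all probesets, 118 with the replicate block and 54 to 290 without 1 array.

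At 3 days 401 genes were called, or 134 with only the groups compared, 191 with all probesets, 264 with the replicate block and 190 to 327 without 1 array. At 10 days 103 were called, or 0 with all probesets, no filter or the replicate block, 53 with the hepatocyte score, 61 with only the groups compared, 170 with quantile normalization, 173 with the stricter filter and also with trended robust moderation, 197 with array weights and 0 to 140 without 1 array. Between the days 10 were called, or 0 with all probesets or the replicate block, 3 with only the groups compared, 25 with the hepatocyte score and 0 to 18 without 1 array. The cause was not tested. Where limma called 0 genes, the genes at an unadjusted p under 0.05 numbered, at 10 days, 3632 with all probesets, 2498 with no filter and 2163 with the replicate block, and, between the days, 2904 with all probesets and 1511 with the replicate block. Without sham rat 2 the counts were 190 at 3 days, 0 at 10 days, 0 between the days and 54 by the F test. At 10 days, 0 were also called without sham rat 3 or 10-day rat 3, 11 without sham rat 1, while leaving out 10-day rat 1, 10-day rat 2 or 3-day rat 2 gave 1, 2 and 45 calls.

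Deviations from group means correlated at -0.10 to 0.08 between same-numbered rats of different groups. Between rats of different groups and different numbers they correlated at -0.13 to 0.17. Deviations within a group of 3 are tied to one another, so these values cannot show whether the numbers pair the rats. Among list genes, the replicate block ended the 3-day calls of Gramd1b, Soat1 and Me1 and the 10-day calls of Lrp1 and Ch25h.

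Differences near 0 turned sign. With array weights these were Fdft1 at 3 days (-0.042) and Cyp51 (-0.014) and Lss (-0.016) at 10 days, and with the hepatocyte score Idi1 at 10 days (0.0067). Without 1 array the ranges at 3 days were -0.11 to 0.12 for Fdft1, -0.013 to 0.14 for Cyp51 and -0.083 to 0.19 for Lss. At 10 days they were -0.12 to 0.058 for Idi1, -0.048 to 0.11 for Cyp51 and -0.10 to 0.089 for Lss. Between the days they were -0.057 to 0.088 for Fdps, -0.074 to 0.018 for Cyp51 and -0.19 to 0.088 for Lss.

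Of the 8 calls of single list genes at 3 or 10 days, those of Lrp1, Npc2 and Ch25h at 3 days were kept in all 10 settings, and the other 5 were lost 20 times in all. The time of the sham operation and the number of rats limit all comparisons.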

Other observations

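Exactly equal values on several arrays were common in the deposited table. Of the 14014 tested genes, 3900 (27.8%) held 1 value on 3 or more of the 9 arrays, and in 3888 of these it was the gene's median. Fdft1 (7.73), Fdps (7.10) and Cyp51 (7.86) were among them, each with 3 equal arrays from all 3 groups, whereas Sqle, Insig1, Idi1 and Lss had 9 different values.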
